A study of Zea mays with 6 samples.

Results

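The filling endosperm of wild-type maize (Zea mays, inbred line B73) was described from 3 RNA-seq libraries, chosen because their labels give the wild-type genotype, out of 6 libraries in the series. The endosperm was collected 20 days after pollination. RNA was extracted with TRIzol, cleaned on RNeasy columns with DNase treatment, and made into libraries with a Truseq mRNA kit. The other 3 libraries, from nacRNAi endosperm, were not analysed here. Every one of the 39179 gene models in the deposited tables was used, and all are listed there as protein-coding. Nothing in the labels says whether the 3 wild-type libraries came from separate plants or ears, so each SD below measures the spread between these libraries, which may be technical.

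The starchy endosperm is the storage tissue of the cereal grain. During filling it imports sugars, turns them into starch in amyloplasts, and makes prolamin storage proteins, the zeins, that gather in protein bodies inside the endoplasmic reticulum. Gamma- and beta-zeins are rich in cysteine and line the outside of the protein body, alpha-zeins fill its core, and delta-zeins are rich in methionine. The aleurone, the basal transfer layer and the embryo surrounding region are specialised endosperm cell types around this tissue.

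The libraries held 64603196, 59596459 and 55812999 counts on gene models. Counts were divided by these totals and are given as percent or as CPM, the count scaled to a library total of 1000000. A level of 3 counts, the limit that a count of 0 allows, was 0.0464, 0.0503 and 0.0538 CPM in libraries 1, 2 and 3. Counting error was small beside the spread between libraries. The widest 95% Wilson half-width of any class share was 0.0129 percentage points, and it covers counting error only, since the counts carry no molecular identifiers. Among the 8801 genes with a mean of at least 10 CPM, the median coefficient of variation over the 3 libraries was 8.16%, against a median counting error of 2.55%. No 2 libraries differed by as little as sampling noise, because a chi-square of their counts over genes, divided by its degrees of freedom, was 31.7 for libraries 1 and 2, 40.5 for 1 and 3, and 49.9 for 2 and 3.

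Library 2 stood apart from the others in more genes. Of 12683 nuclear genes with at least 5 CPM in a library, 59 differed over 5-fold from both other libraries in library 2, against 13 in library 1 and 13 in library 3. The basal transfer layer is the cell layer that takes up sugars at the base of the kernel. Its 9 markers summed to less in library 2, at 52.1, 20.6 and 57.0 CPM in libraries 1, 2 and 3. Maternally expressed gene4 (Zm00001d019541) gave most of that sum, with 42.4, 19.6 and 51.0 CPM. Only 2 of the 9 reached 1 CPM on average. The other, basal endosperm transfer layer9 (Zm00001d041822), had 432, 34 and 255 counts. The list does not hold BETL1, BETL2, BETL4, MRP1, TCRR1 or MEG1, which had been planned as markers of this layer. Library 3 had less alpha-zein and more histone RNA than the others, with values given below.

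The labelled tissue was checked against markers of the cell types it could hold. Zeins, which define the starchy endosperm, led every library. The 13 aleurone markers, led by naked endosperm1 (a transcription factor of aleurone differentiation), summed to 268, 295 and 301 CPM. Most of that came from naked endosperm1, at 108, 103 and 128 CPM, and Supernumerary aleurone1 (Zm00001d046599), at 72.6, 86.6 and 81.5 CPM. All 13 were above 0, but only 9 reached 1 CPM on average. The list also takes in CRINKLY4-like receptor kinase models with few counts, such as Zm00001d049145 with 11, 3 and 2. The 6 genes of the embryo surrounding region summed to 0.124, 0.0336 and 0.233 CPM, with 2 of them at 0 in every library. The embryo list of 12 genes summed to 1144, 1089 and 1148 CPM. Most of that came from oleosins, the coat proteins of oil bodies, which are also made in the aleurone. Of the 12 genes, 10 reached 1 CPM on average. Among them were models described as WUSCHEL-related homeobox 2, Zm00001d042920 with 745, 934 and 841 counts and Zm00001d012419 with 611, 592 and 564. The 68 genes of the photosynthetic list summed to 77.8, 82.9 and 88.4 CPM, and 26 of them were at 0. In bulk tissue, fewer cells of a type and less RNA per cell cannot be told apart. The part of other cell types in the values below was not tested.

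A very small number of genes held most of the RNA. The most abundant gene took 9.91%, 10.3% and 10.03% of the counts in libraries 1, 2 and 3. The 10 most abundant genes took 36.7%, 36.9% and 35.2%, and the same 10 genes led all 3 libraries. It took 34, 33 and 49 genes to reach 50% of the counts. To reach 90% it took 4810, 4777 and 5010 genes. Outside the zeins the distribution was much flatter, and 856 genes were needed for 50% of the remaining counts on mean CPM. At the other end of the scale, 61 genes had at least 1000 CPM in all 3 libraries, 814 had at least 100 CPM and 16486 had at least 1 CPM.

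**Figure D1:**
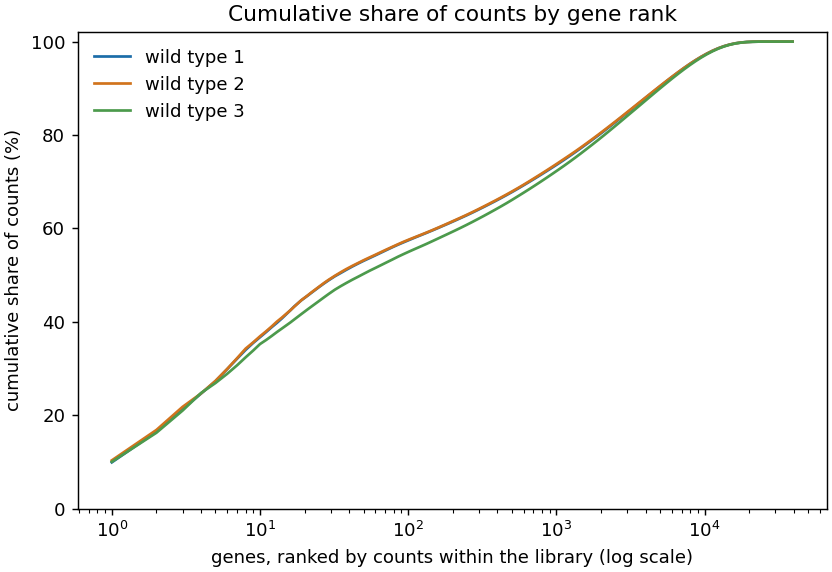
Cumulative share of counts (%, y axis) against the rank of genes within each library (log scale, x axis), one line per wild-type library. Libraries 1 and 2 lie on top of each other, and the 10 leading genes reach 36.7%, 36.9% and 35.2% in libraries 1, 2 and 3.

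Zeins filled the top of the ranking. Of the 10 most abundant genes 9 were zeins, and of the 20 most abundant 18 were zeins. The first exception was corn-activated Hageman factor inhibitor1 (Zm00001d005230), a small secreted inhibitor of trypsin and of blood-clotting factor XIIa, at rank 10. It had 789082, 766394 and 768057 counts, or 12945 ± 777 CPM (SD, n = 3). The second was Sucrose synthase 1 (Zm00001d045042), the enzyme that splits imported sucrose, at rank 19. It had 323728, 426643 and 305162 counts, and was highest in library 2. Ranks 21 and 22 went to Glycine-rich RNA-binding protein 2 (Zm00001d031168) at 4881 ± 67.2 CPM and to legumin1 (Zm00001d035700), an 11S-type storage globulin, at 4860 ± 244 CPM. Further genes of the first 30 were Sorbitol dehydrogenase (Zm00001d031727, 4160 ± 354 CPM), globulin3 (Zm00001d038597, 4095 ± 340 CPM) and pyruvate orthophosphate dikinase2 (Zm00001d010321, 3621 ± 278 CPM). The last of these interconverts pyruvate and phosphoenolpyruvate.

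Product classes were read from the gene descriptions in the tables, and zeins were taken from a list of 29 genes. The classes together held 6023 genes and 68.8%, 68.9% and 67.3% of the counts. Zeins held 45.3%, 45.0% and 41.9%, a mean of 44.1 ± 1.89% (SD, n = 3). The next class, cytosolic ribosomal proteins, held 3.67%, 3.65% and 3.93% over 483 genes. It was therefore 12.4, 12.3 and 10.7 times smaller than the zeins. All 29 zein genes were above 0, while 61 of the 483 ribosomal protein genes were at 0 counts in all 3 libraries.

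The machinery of protein synthesis and turnover came next. Ubiquitin and proteolysis genes held 2.99 ± 0.0716% of the counts over 1130 genes, led by ubiquitin1 (Zm00001d015327), a polyubiquitin, with 145900, 139827 and 121068 counts. Translation factors and tRNA ligases held 2.14 ± 0.126% over 306 genes, led by Elongation factor 1-beta (Zm00001d022134), which recharges elongation factor 1-alpha with GTP, at 99036, 95711 and 100877 counts. Glycolysis and energy genes held 2.10 ± 0.161%, led by pyruvate orthophosphate dikinase2 with 17.2% of that class. Cytoskeleton and vesicle traffic genes held 1.77 ± 0.0822%, led by alpha tubulin1 (Zm00001d033850) with 112139, 104188 and 108848 counts. The third-ranked gene of that class was a SecY family protein (Zm00001d028201), part of the channel that carries new proteins across a membrane. It had 72137, 69084 and 63583 counts.

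Protease and amylase inhibitors formed a class carried by a few genes. It held 1.85%, 1.97% and 2.01% of the counts over 58 genes, and the Hageman factor inhibitor alone made up 66.6% of it. Subtilisin-chymotrypsin inhibitor CI-1B followed in neighbouring copies, Zm00001d035681 with 156051, 156416 and 121199 counts and Zm00001d035680 with 66110, 68948 and 63545 counts. A gene described as Protease inhibitor (Zm00001d011080) had 92248, 97026 and 85423 counts. Bowman-Birk type wound-induced proteinase inhibitor WIP1 (Zm00001d040029) varied between libraries, with 6019, 11223 and 2768 counts, highest in library 2.

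Starch genes held far fewer counts than storage protein genes. The starch class of 66 genes held 0.806%, 0.721% and 0.870%, a mean of 0.799 ± 0.0747%, and zein counts were 56.2, 62.4 and 48.1 times higher in libraries 1, 2 and 3. Only 3 genes were needed for 50% of the class. They were a glucose-1-phosphate adenylyltransferase gene (Zm00001d050032), a large-subunit gene of that enzyme (Zm00001d044129), and the BT1 transporter (Zm00001d015746) that brings ADP-glucose into amyloplasts. The adenylyltransferase, also known as ADP-glucose pyrophosphorylase, makes the sugar nucleotide from which starch is built. The first had 128372, 112013 and 122738 counts, the second 118633, 90912 and 104489, and the transporter 72367, 62390 and 81908.

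Chain-building enzymes of starch were lower. The branching enzyme gene Zm00001d016684, described as 1,4-alpha-glucan-branching enzyme 2, had 60298, 46175 and 50248 counts, starch phosphorylase1 (Zm00001d034074) 24271, 19779 and 23093, and Starch synthase I (Zm00001d045261) 21642, 21867 and 19279. Sugary1 (Zm00001d049753), the isoamylase that trims branches, had 14192, 11300 and 12667 counts. Granule-bound starch synthase 1 (Zm00001d045462), which makes amylose, had 3822, 3704 and 4292 counts and ranked 1541. Its level per length was 34.9, 33.4 and 35.7 FPKM, the authors' value scaled for transcript length and depth, against 436, 439 and 474 FPKM for the adenylyltransferase gene Zm00001d050032.

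Sucrose use and sugar transport held 1.06%, 1.26% and 1.16%, with Sucrose synthase 1 making up 50.6% of the class and Sorbitol dehydrogenase most of the remainder. Other storage proteins held 0.938%, 1.05% and 0.987%, of which legumin1 made up 49.1%. Legumin1 had 305835, 306379 and 262544 counts and globulin3 had 239246, 257126 and 238094. The embryo globulin Globulin-1 (Zm00001d033447) was much lower, with 3584, 5000 and 3337 counts.

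Folding factors of the endoplasmic reticulum held 0.289%, 0.305% and 0.305% over 40 genes, so zein counts were 157, 148 and 137 times higher. Protein disulfide isomerase1 (Zm00001d049099), which forms and reshuffles disulfide bonds, made up 42.2% of the class with 75818, 78980 and 72568 counts. Luminal-binding protein 2 (Zm00001d014993), the BiP chaperone, had 21167, 20804 and 19244 counts. Calnexin homolog1 (Zm00001d003857), a chaperone for glycoproteins, had 13695, 12677 and 14262. The class had a coefficient of variation of 2.99% over the libraries. The class of other chaperones, matched by description and not by place in the cell, held more in sum, 1.30 ± 0.0302% over 458 genes. It was led by Heat shock 70 kDa protein Zm00001d012420 with 54407, 65536 and 51556 counts.

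Smaller classes included defence peptides and lectins at 1.14 ± 0.0467%, redox and metal binding genes at 0.949 ± 0.0630%, and lipid transfer and oil body genes at 0.544 ± 0.0374%. They were led by a jacalin-related lectin (Zm00001d035558), by Metallothionein-like protein 2A (Zm00001d008620) and by phospholipid transfer protein homolog1 (Zm00001d023343). Their mean levels were 2486, 2801 and 2524 CPM in that order. Amino acid metabolism held 0.854 ± 0.0781%, led by glutamate-oxaloacetate transaminase1 (Zm00001d043382), which moves amino groups onto oxaloacetate. Histones held 0.347%, 0.381% and 0.487% and were highest in library 3, with a coefficient of variation of 18.1%. In the same library the list of 100 genes of dividing cells summed to 4116 CPM, against 2958 CPM in library 1 and 3216 CPM in library 2. The highest members of that list are histone genes themselves, so its sum is not separate from the histone share.

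**Figure D2:**
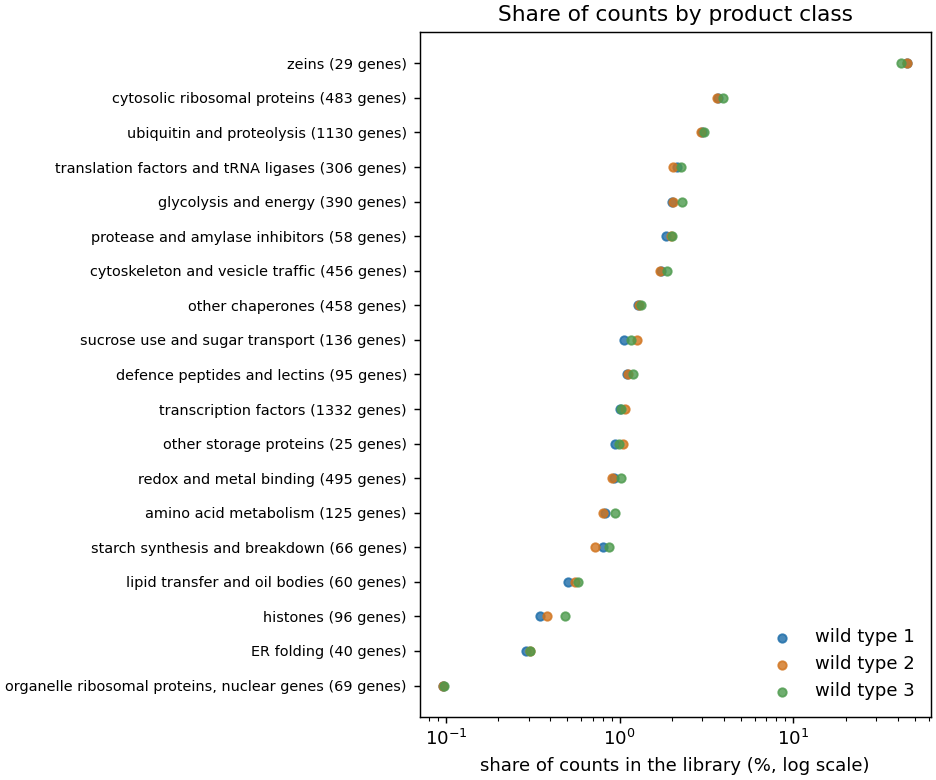
Share of counts (%, log scale, x axis) held by each product class (y axis, with the number of genes), one point per wild-type library. Zeins sit between 41.9% and 45.3%, cytosolic ribosomal proteins between 3.65% and 3.93%, and starch genes between 0.721% and 0.870%.

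Within the zeins, cysteine-rich members led. The 27-kDa gamma-zein gene (Zm00001d020592, described in the tables as Glutelin-2, chromosome 7, 123982344 to 123983015, plus strand, genome build not given in the sources used here) had 6400926, 6157829 and 5596002 counts. That is 10.1 ± 0.219% of all counts and 22.9 ± 1.03% of zein counts. The 15-kDa beta-zein gene (Zm00001d035760, chromosome 6) followed with 4250404, 3881925 and 3472278 counts. The 16-kDa gamma-zein gene (Zm00001d005793, chromosome 2), described in the tables as Zein-beta, had 3119908, 2940886 and 2644434.

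The methionine-rich 10-kDa delta-zein gene (Zm00001d045937, chromosome 9) had 2138214, 1719668 and 2104742 counts, and was lowest in library 2. Together these 4 single-copy genes held 24.6%, 24.7% and 24.8% of all counts, nearly the same share in each library. The ratio of 27-kDa to 16-kDa gamma-zein counts was also steady, at 2.05, 2.09 and 2.12. The 50-kDa gamma-zein gene (Zm00001d020591), next to the 27-kDa gene on chromosome 7, had 964808, 802464 and 813973 counts.

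Alpha-zeins reached a similar total through many copies. The 23 alpha-zein genes held 18.7%, 18.5% and 15.05% of the counts, against 16.2%, 16.6% and 16.2% for the 3 gamma-zein genes. The drop in library 3 was shared by most copies, and 18 of the 23 were lowest there. Gamma-zein counts divided by alpha-zein counts gave 0.870, 0.899 and 1.08. Copies of a zein array are close in sequence. How reads shared among them were counted is not stated in the labels or headers, and the split between copies is uncertain while their sum is less so.

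Alpha-zein genes lay in 3 arrays and as single genes. The 6 genes of an array on chromosome 4, between 6292792 and 6359146, held 7.83 ± 0.918% of all counts. The 10 genes of another array on that chromosome, between 5835517 and 5944767, held 3.57 ± 0.571%, and the 4 genes of the chromosome 7 array held 2.92 ± 0.262%. Floury2 (Zm00001d049243), a single gene on chromosome 4, held 2.37 ± 0.344% by itself. Its counts were 1666369, 1526351 and 1102362.

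Copies within an array differed widely. In the 10-gene array the highest member (Zm00001d048816, 7740 CPM) was 175-fold above the lowest (Zm00001d048807, 44.2 CPM). In the 6-gene array the range was 5.53-fold. Over arrays and single genes together, 16 of the 23 alpha-zein genes had at least 1000 CPM and 7 did not.

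A few low copies also differed between libraries. The chromosome 7 copy Zm00001d019162 had 41673, 4485 and 30763 counts and was lowest in library 2. The copy 22kD alpha zein5 (Zm00001d048806) went the other way, with 8529, 29041 and 5237 counts. Zm00001d019156, which has no description, overlaps Zein-alpha A20 (Zm00001d019155) on the opposite strand. Whether counting used the strand is not stated in the labels or headers. The 586429, 643011 and 483550 counts listed for it therefore cannot be told apart from those of Zein-alpha A20.

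**Figure D3:**
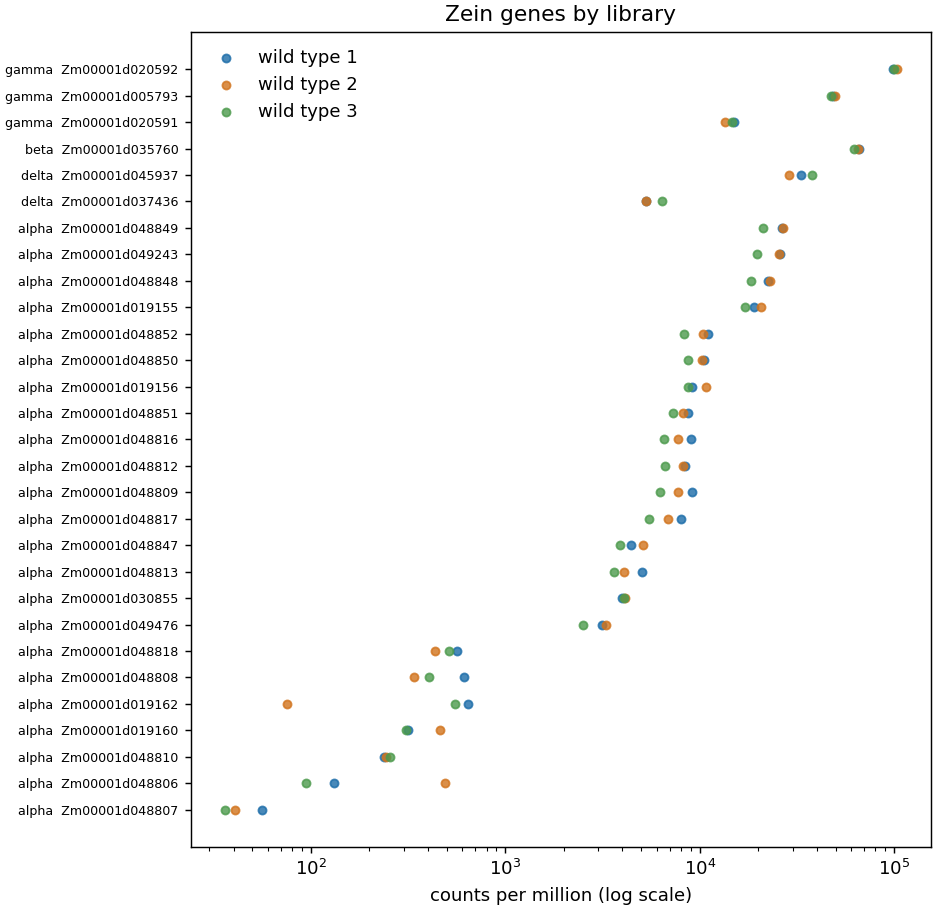
CPM (log scale, x axis) of the 29 zein genes (y axis, by group and gene identifier), one point per wild-type library. The 27-kDa and 16-kDa gamma-, 15-kDa beta- and 10-kDa delta-zein genes stand at the high end, and alpha-zein genes spread from 44.2 to 24812 CPM on average.

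The deposited FPKM values could not be used for zeins as a class. The 27-kDa gamma-zein gene, Zein-alpha A20 and Zm00001d019156 were listed at 0 FPKM in all 3 libraries, and the 15-kDa beta-zein gene was listed at 0 in libraries 1 and 2 but at 99367 FPKM in library 3. Genes listed at 0 FPKM carried 19.3%, 20.0% and 12.6% of the counts. Among other genes with a mean of at least 15 CPM such zeros were rare, and FPKM was kept for comparing members of other families.

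Several transcription factor genes were abundant. A NAC-domain gene (Zm00001d008403), described in the tables as similar to Arabidopsis NAC domain containing protein 87, was the highest gene in the transcription factor class, with 71734, 64123 and 51315 counts. It had 619, 586 and 479 FPKM. The second NAC-domain gene, no-apical-meristem-related protein1 (Zm00001d040189), had 109, 123 and 104 FPKM, so the first was 5.70, 4.75 and 4.62 times higher per length. Opaque2 (Zm00001d018971), a bZIP activator of zein genes, had 31731, 40727 and 28046 counts and 210, 339 and 208 FPKM, highest in library 2. Opaque2 heterodimerizing protein 1 (Zm00001d034457), a bZIP partner of Opaque2, had only 158, 159 and 232 counts.

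Other known factors spanned a wide range. The class was set by description and leaves out Zinc finger protein1 (Zm00001d046767), which had 140486, 123520 and 106502 counts, above Zm00001d008403. A PLATZ family gene (Zm00001d009292) had 17471, 23157 and 22504 counts. Naked endosperm1 (Zm00001d002654) had 6965, 6137 and 7119 counts, and its paralog naked endosperm2 (Zm00001d026113) had 2372, 3225 and 2343. Viviparous-1 (Zm00001d042396), a B3-domain factor of seed maturation, had 511, 414 and 578. The transcription factor class as a whole held 1.03 ± 0.0345% of the counts over 1332 genes, of which 28.2% were at 0.

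The weight of the highest member differed between gene families. Over 32 families with 503 members, the highest member held a median of 54.0% of the family's summed FPKM. It held over 50% in 19 families and over 80% in 4. The 19 families include an inhibitor pair, where the higher member always holds at least 50%. They also include near-ties such as starch branching enzyme, at 52.4%. The highest member was the same gene in all 3 libraries in 27 of the 32 families. The median effective number of members, which is 1 when a single gene holds everything, was 2.38, while the median family had 10 members.

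Dominance was strongest in an inhibitor pair and in several enzyme and water channel families. The Hageman factor inhibitor held 99.4 ± 0.0586% of its pair. Alcohol dehydrogenase 1 (Zm00001d033931), an enzyme of anaerobic fermentation, held 97.3 ± 0.590% of 8 genes, and alcohol dehydrogenase2 had 2.37, 1.01 and 2.04 FPKM. Sucrose synthase 1 held 85.2%, 89.7% and 87.5% of 18 sucrose synthase models, of which 10 were at 0 counts. The water channel Aquaporin PIP2-1 (Zm00001d019563) held 86.2 ± 0.520% of the plasma membrane aquaporins, and Aquaporin TIP3.1 (Zm00001d048520) held 76.0 ± 1.36% of the tonoplast aquaporins. Pyruvate orthophosphate dikinase2 was 3.30, 3.30 and 3.84 times its paralog per length.

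By the share of their highest member, folding families of the endoplasmic reticulum lay below those families. They were still above the median of 54.0% and above the starch families. Luminal-binding protein 2 held 71.8 ± 0.651% and Calreticulin (Zm00001d019283), a calcium-binding chaperone, held 72.6 ± 0.515%. Protein disulfide isomerase1 held 61.5 ± 2.59% of 19 genes. The adenylyltransferase gene Zm00001d050032 held 52.6 ± 1.35% of the ADP-glucose pyrophosphorylase family, and was 1.17, 1.32 and 1.24 times the large-subunit gene Zm00001d044129. This family pools genes for different subunits of the enzyme, so the share is not one among interchangeable copies. The 2 genes had means of 450 and 364 FPKM, of 856 FPKM in the family of 10 models. By FPKM, the starch branching family was split between Zm00001d014844 at 197 ± 13.7 and Zm00001d016684 at 179 ± 11.2. By counts it was not evenly split. Zm00001d014844 had 20164, 15239 and 17193 counts, against 60298, 46175 and 50248 for Zm00001d016684. Starch synthases had no dominant gene, and Starch synthase I led 15 members with 33.6 ± 3.51%.

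Actin, histone and elongation factor 1-alpha families were among the most evenly spread. The highest member held 23.0 ± 1.63% among 26 actins, 23.3 ± 2.45% among 24 histone H3 genes, 26.9 ± 1.25% among 13 elongation factor 1-alpha genes and 17.6 ± 1.16% among 17 histone H4 genes. Leadership changed between libraries in the defensin and gamma-thionin family. Flower-specific gamma-thionin (Zm00001d027500) had 2535, 2271 and 3271 FPKM and Defensin-like protein 2 (Zm00001d024302) had 2652, 2728 and 2313 FPKM, so Defensin-like protein 2 led in libraries 1 and 2 only. By FPKM, legumin1 was 1.25, 1.19 and 0.830 times globulin3, below it in library 3 only. By counts, given above, legumin1 was higher than globulin3 in all 3 libraries.

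The share of the highest model also differed between ribosomal proteins. Of 82 proteins with at least 2 gene models, the highest model held over 50% of the summed FPKM in 57 and over 80% in 14. Where a protein has only 2 models, the higher always holds at least 50%. The count of 57 includes such proteins, and for them it does not measure dominance. The median share was 56.8%, and the leader was the same in all 3 libraries for 77 proteins. Shares ran from 26.8% for L3, spread over 6 models, to 99.1 ± 0.160% for S6 and 99.9 ± 0.0329% for L40, with L36a listed at 0 FPKM for its second model. Near-identical copies share reads, so these shares are uncertain where the counting split them.

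**Figure D4:**
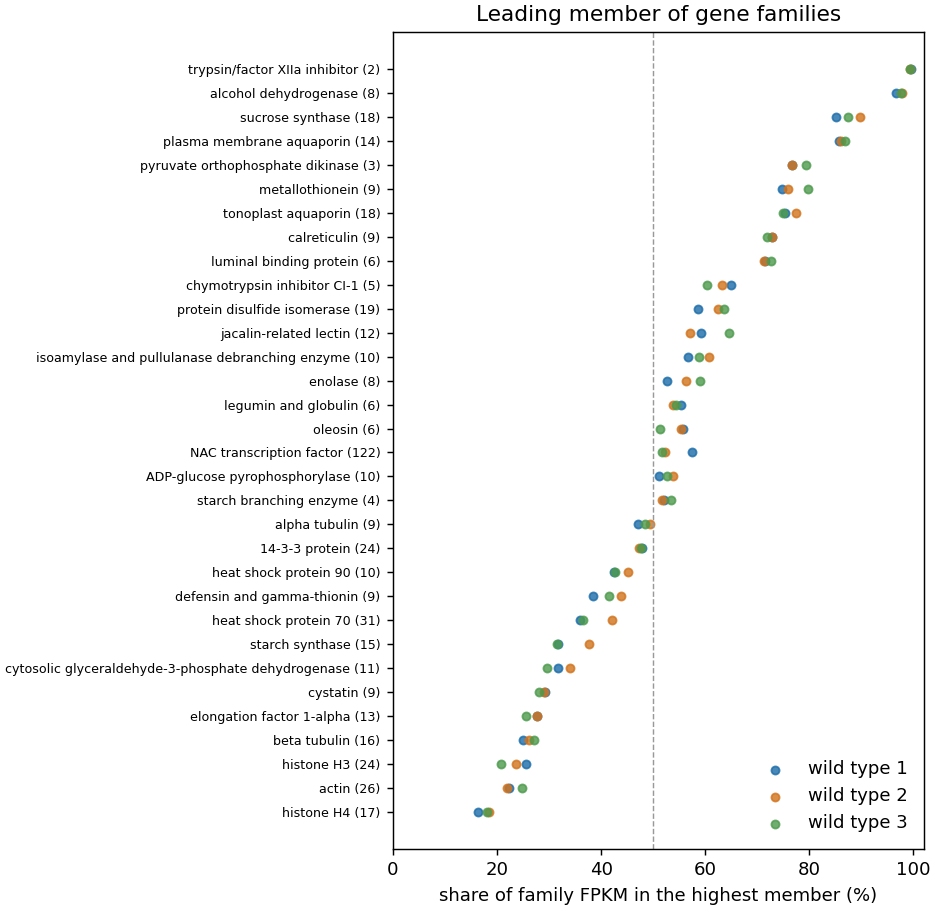
Share of family FPKM (%, x axis) held by the highest member in each of 32 families (y axis, with the number of members), one point per wild-type library. The dashed line marks 50%, which 19 families exceed on average, from the inhibitor pair at 99.4% down to starch branching enzyme at 52.4%.

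RNA from organelle genomes was close to absent from these libraries. The 174 organelle gene models held 600, 550 and 480 counts in all, in libraries made with an mRNA kit. Selection of RNA with poly(A) tails limits what such libraries hold of organelle RNA. The counts therefore do not measure the level of organelle RNA in the endosperm. The 123 mitochondrial models held 592, 549 and 475 counts, or 8.96 ± 0.392 CPM (SD, n = 3), and 53 of them had a count in some library. The 51 plastid models held 8, 1 and 5 counts, or 0.124, 0.0168 and 0.0896 CPM, and 48 of them were at 0 in every library.

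Cytochrome c oxidase subunit 2 (GRMZM5G862955), a core subunit of the last respiratory complex, led the mitochondrial genes with 242, 208 and 203 counts. ATP synthase protein MI25 (GRMZM5G884912) had 54, 24 and 43 counts and Cytochrome c oxidase subunit 3 (GRMZM5G884538) had 36, 39 and 21. Among nuclear genes for ribosomal proteins of the organelles, 66 of 69 were above 0. They held 0.0965%, 0.0961% and 0.0980% of the counts, a coefficient of variation of 1.04%.

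Many gene models were listed at 0 counts, and are termed silent here on that basis alone. In all 3 libraries 10549 models, 26.9%, had 0 counts, which allows up to 3 counts per library. Another 2603 had counts in 1 library only and 2141 in 2 libraries only. The other 23886 models, 61.0%, had at least 1 count in all 3. Per library 12908, 13123 and 12963 models were at 0.

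Silence differed between kinds of gene. Of 9289 nuclear models without a description 47.9% were silent, against 20.1% of the 29716 with one. Germin-like genes, whose products sit in the cell wall, were silent in 28 of 40 models, expansins, which loosen cell walls, in 58 of 95 models, and peroxidases in 58 of 138. Among regulators, 27 of 79 MADS-box genes and 37 of 136 WRKY genes were silent. The WRKY share, 27.2%, was close to the 26.7% of all nuclear genes.

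Families used in every cell were rarely silent. Pentatricopeptide repeat genes, which process organelle RNA, were silent in 33 of 445 models, proteasome subunits in 3 of 37 and ribosomal proteins named as 40S or 60S in 54 of 374. Of the 445 pentatricopeptide repeat models, 40.7% reached 1 CPM on average, against 83.8% of the proteasome subunits. The terpene synthases were the other extreme, with none of 13 at 1 CPM.

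Chromosomes differed little in silence, from 24.8% on chromosome 5 to 29.3% on chromosome 4, while they differed strongly in their share of counts. Chromosome 4, with most alpha-zein copies, held 19.0 ± 1.65% of all counts and 8.85% of those outside the zeins. Chromosome 7 held 18.7 ± 0.302% and 7.65%.

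A count of 0 was not always a value of 0 in the other table. Of the silent models 261 had FPKM above 0, and 259 of these overlap another gene model. An example is 17.4 kDa class I heat shock protein 3 (Zm00001d028555), with 0 counts and 305, 320 and 384 FPKM. Ribosomal protein models counted above as silent are among them. The highest L9 model by FPKM (Zm00001d035902) had 0 counts and 125, 134 and 134 FPKM. For such models neither table settles whether the gene is silent.

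**Figure D5:**
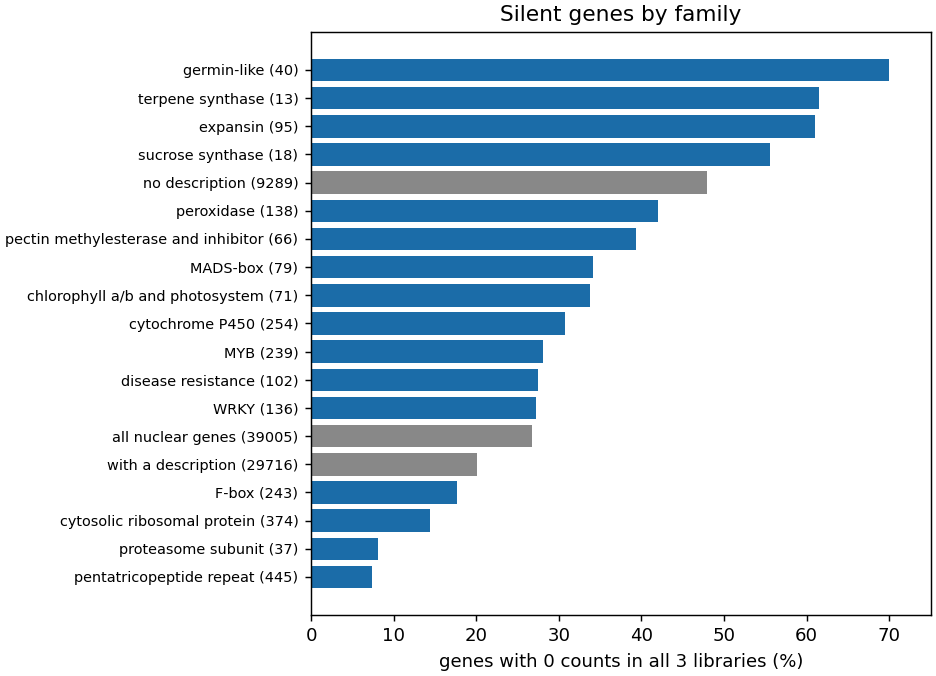
Share of gene models with 0 counts in all 3 wild-type libraries (%, x axis) by family (y axis, with the number of models), with grey bars for all nuclear genes and for models with and without a description. Expansin genes stand at 61.1% and pentatricopeptide repeat genes at 7.42%, against 26.7% of all nuclear genes.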

How the data were processed

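For 39179 gene models the authors deposited whole-number read counts in a table and FPKM values in another, per the file headers. Aligner, counter, strand setting, annotation and genome build: not given in the sources used here. From the counts, shares of the library total and CPM were computed with Python 3.11.15, numpy 2.4.6 and pandas 2.3.3, and intervals with scipy 1.17.1. Figures used matplotlib 3.10.9. TMM factors came from edgeR 4.0.16 in R 4.3.3. Deposited FPKM was used for shares within families, with no pseudocount and no filter. No test was made, as there is one group. Product classes, families and marker lists were matched to gene descriptions, first match winning, and zeins to a list of 29 genes, of which 8 have no zein description and were placed by GO term and position. Share, ranking and leader computations were tested on simulated counts. Named genes were the 20 most abundant, the leaders of each class and family, known regulators and starch genes, the leading organelle genes and leading markers. Genes named for differing between libraries, and some further examples, were chosen after their values were seen. Members and lists were chosen with earlier results of these data known, and the class patterns were revised after the descriptions were read. The amino acid composition of the encoded proteins was not analysed here, and pbf1 and du1 were not matched to a gene model. Genes carry the names in the deposited descriptions, while zein size classes follow common usage. The descriptions name no model NAC128 or NAC130.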

Additional observations from a re-analysis of the deposited data

How the results depend on the processing

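As a share of summed FPKM, zeins came to 58.1% although 4 zein genes are listed at 0 in at least 1 library, inhibitors to 3.64%, starch genes to 0.312% and ER folding genes to 0.124%. Outside the zein genes, cytosolic ribosomal proteins held 6.70% of the counts, inhibitors 3.48%, starch genes 1.43% and ER folding genes 0.536%. Without the 10 most abundant genes, zeins held 14.3%, cytosolic ribosomal proteins 5.88%, inhibitors 1.02%, starch genes 1.25% and ER folding genes 0.470%. Denominators are smaller in both cases, and without the 10 leading genes the zeins and inhibitors also lose members. With class patterns as first written, tried after the data were seen, zeins held 39.7%, ribosomal proteins 4.001%, starch genes 0.630% and ER folding genes 0.332%.

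Ranked by FPKM averaged over the libraries, 11 genes were needed for 50% of the total. The 10 leading genes of each library, which need not be the same genes, held 50.1% of its summed FPKM on average. Family counts in place of FPKM gave a median leader share of 52.6%. Organelle genes summed to 11.99 in each 1000000 of summed FPKM, against 9.04 CPM. The number of silent genes was 13741 at up to 3 counts in each library, 16330 at under 10 counts, 17604 at a mean FPKM under 0.1 and 24269 under 1. Leaving out each library in turn gave 43.5% to 45.2% for zeins, 33 to 40 genes for 50% of the counts, 11396 to 11455 silent genes and a median leader share of 53.3% to 54.6%. In zein counts per kb of gene model span, added after the data were seen, alpha-zeins were 32.7% and gamma-zeins 37.4% of the zeins, against 39.4% and 37.1% of counts. Without library 2, basal transfer markers summed to 52.1 and 57.0 CPM. Of the alternative values for the zein, ribosomal protein, inhibitor, starch and ER folding shares, the ranking, the families, the organelle genes and the silent genes, 26 moved beyond the limit set for them and 50 did not. For the other classes, the zein groups and the 27-kDa gamma-zein gene, 46 moved and 78 did not. The limit was the SD between libraries, or 1.5 times for a count of genes. No paired analysis was possible because a single group was described. Depth limits statements on genes under about 0.05 CPM, and 3 libraries limit every SD.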

Other observations

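Library 2 carried higher RNA of a set of genes that the product classes do not show. Src2-like protein (Zm00001d011919) had 689, 6427 and 697 counts in libraries 1, 2 and 3. EF-hand Ca2+-binding protein CCD1 (Zm00001d014491) had 355, 3952 and 308, and Xyloglucan endotransglucosylase/hydrolase protein 14 (Zm00001d009309), a cell wall enzyme, had 394, 3674 and 423. The 16.9 kDa class I heat shock protein 1 (Zm00001d039933) had 5698, 11023 and 3068. Of the 59 genes that stood over 5-fold apart in library 2, 34 were higher and 25 lower there.

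In the first 20 Mb of chromosome 7, a window chosen after the values were seen, 5 of 150 genes stood apart in library 2, or 3.33%, of which 4 were lower and 1 was higher there. Over all genes the share was 0.465%, and in the same window 0 genes stood apart in library 1 and 0 in library 3. The lower genes include Rhicadhesin receptor (Zm00001d018954) with 1202, 20 and 2238 counts and Acidic endochitinase (Zm00001d018966) with 3060, 383 and 5788. The 40S ribosomal protein S23-2 copy in that window (Zm00001d018970), the higher gene, had 201, 1560 and 101 counts. The copy on chromosome 9 (Zm00001d048114) had 2279, 220 and 1439, lowest where the first was highest. The cause was not tested.

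Library 3 alone had high Peroxidase 12 (Zm00001d042019), with 509, 374 and 18751 counts. Among models with counts in a single library, Probable sulfate transporter 3.5 (Zm00001d043614) had the most, 587 counts in library 1. L-tryptophan--pyruvate aminotransferase 1 (Zm00001d037498), an enzyme of auxin synthesis, had 35634, 48276 and 43161 counts, and defective18 (Zm00001d023718) had 32745, 33645 and 33104. The cell wall invertase Beta-fructofuranosidase, insoluble isoenzyme 2 (Zm00001d003776), had 2, 0 and 0 counts.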
